A study of Homo sapiens with 2 samples.

Results

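The 3p arms of the human miRNAs numbered from miR-6715 to miR-6895 were examined in exosomes of FaDu cells, a line established from a human squamous cell carcinoma of the hypopharynx. The members were all entries of the array that are named as human miRNAs, carry a number within this range and end in -3p. This rule uses no measured value, but it was set with earlier results of these data known. This gave 173 members, beside 176 5p arms of the same range and 2200 other miRNAs, which together make up the human miRNAs of the array. Exosome RNA was compared between FaDu cells transfected with an NC (negative control) plasmid lentivirus, oe-NC, and FaDu cells transfected with a HOTTIP overexpression plasmid lentivirus, oe-HOTTIP. HOTTIP is a long noncoding RNA transcribed from the distal end of the HOXA gene cluster. Each group was 1 array of 1 sample, both groups came from the same cell line, and the study's methods describe the expression vector as a plasmid introduced by lipid transfection. In bulk exosome RNA, fewer vesicles that carry a miRNA and fewer copies per vesicle cannot be told apart.

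The labels contradict each other, and every direction below rests on one reading of them. The sample titles and treatments were used here, whereas the free-text description of each array names the other group. In the deposited normalized table the column named oe-NC followed the scanner values of the oe-HOTTIP-labelled array (Spearman rho 1.00 over 388 miRNAs, against 0.77 over 261 miRNAs with the oe-NC-labelled array). The column named oe-HOTTIP likewise followed the oe-NC-labelled array (rho 1.00 over 315 miRNAs, against 0.76 over 258 miRNAs). With the columns of that table exchanged, its values above the floor matched the scanner calls for 173 of 173 members. Only members detected on a single array can show an exchange, 15 on the oe-NC-labelled array and 1 on the oe-HOTTIP-labelled array. The 154 members detected on neither array and the 3 detected on both match in either order. The arrays are therefore called the oe-NC-labelled array and the oe-HOTTIP-labelled array, and each difference turns round if the titles are the entry at fault.

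A miRNA precursor folds into a hairpin, and the mature strand cut from the side nearer its 3′ end is the 3p arm, the other strand the 5p arm. Many miRNAs of this number range are annotated as mirtrons, which are short introns that the spliceosome excises and that Dicer then cuts without prior processing by Drosha. In such a hairpin the 3p arm is the 3′ end of the intron, so it includes the polypyrimidine tract and ends with the AG of the 3′ splice site. A mature miRNA pairs with its targets mainly through its seed, bases 2 to 8 from the 5′ end.

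Sequences were matched by name in RefSeq's miRNA records on GRCh38.p14 for 154 of the 173 members (89.0%). The sequences below are those of the 3 members detected on both arrays and of 2 of the 3 members with the largest bounds towards lower signal. They are written 5′ to 3′ with the seed in capitals.
miR-6766-3p: uGAUUGUCuucccccacccuca
miR-6819-3p: aAGCCUCUguccccaccccag
miR-6797-3p: uGCAUGACccuucccuccccac
miR-6889-3p: uCUGUGCCccuacuucccag
miR-6798-3p: cUACCCCCcaucccccuguag

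All 5 are rich in C and U, and each holds an uninterrupted run of at least 4 C. miR-6766-3p lies at chr15:89326742-89326763 on the minus strand, within the span of POLG, which encodes the catalytic subunit of the mitochondrial DNA polymerase. miR-6819-3p lies at chr22:36286847-36286867 on the minus strand, within MYH9, a nonmuscle myosin heavy chain gene. miR-6797-3p lies at chr19:41869675-41869696 on the plus strand, within RPS19, which encodes a protein of the small ribosomal subunit. miR-6889-3p lies at chr22:41252992-41253011 on the minus strand, within RANGAP1, the activator of the Ran GTPase. miR-6798-3p lies at chr19:49009952-49009972 on the plus strand, within RUVBL2, which encodes an ATPase of chromatin remodelling complexes. These are positions within gene spans, and intron and exon boundaries were not used here.

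The members as a whole were rich in C and U and mostly ended in AG, the traits described above for mirtron 3p arms. Intron 3′ ends themselves were not measured here. The median share of C and U was 72.7% in the 154 members with a sequence, 31.8% in the 150 5p arms of the same number range with a sequence and 50% in the 1944 other miRNAs with one. C alone made up a median of 45.5% of the 3p arms, 14.3% of the 5p arms and 21.7% of the other miRNAs. The mature sequence ended in AG in 115 members (74.7%), in 10 of the 5p arms (6.67%) and in 153 of the other miRNAs (7.87%). Among other miRNAs named -3p the share ending in AG was 10.3%. The hairpin itself ended in AG for 133 of the 143 member hairpins with a sequence (93.0%), against 263 of all 1562 hairpins in the sequence table (16.8%). Of the 154 members, 151 (98.1%) lay inside the span of a protein-coding gene, against 1230 of the 1944 other miRNAs (63.3%). Length and GC content set the 3p arms apart less from the 5p arms, with a median length of 21 bases against 22 and a median GC share of 60.9% against 61.9%. The other miRNAs had a median length of 22 bases and a lower median GC share, 50%.

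Few 3p arms were detected, and fewer on the oe-HOTTIP-labelled array than on the oe-NC-labelled array. The scanner software called 18 of the 173 members detected on the oe-NC-labelled array (10.4%), where it detected 12.9% of all miRNAs. It called 4 members detected on the oe-HOTTIP-labelled array (2.31%), where it detected 15.3% of all miRNAs. The 5p arms of the same number range went the other way, with 35 of 176 detected on the oe-NC-labelled array (19.9%) and 53 on the oe-HOTTIP-labelled array (30.1%). Of all other miRNAs 275 of 2200 (12.5%) and 333 (15.1%) were detected, and of the 702 other miRNAs named -3p 12% and 11.1%.

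Calls of a difference at the study's 2-fold threshold leaned the same way. Of the 173 members, 18 were at least 2-fold lower on the oe-HOTTIP-labelled array (10.4%), against 4.51% of all miRNAs. Only 1 member was at least 2-fold higher there (0.578%), against 6.08% of all miRNAs. Among the 5p arms 8 were lower (4.55%) and 29 higher (16.5%), and among all other miRNAs 89 were lower (4.05%) and 125 higher (5.68%). Of the 18 lower members, 3 were detected on both arrays, and the other 15 were detected on the oe-NC-labelled array only. A member of the second kind is given as a bound, its scaled signal against the lowest signal called detected on the other array or its own signal there, whichever was higher. With 1 array per group there is no spread between samples and no test, so each count describes this pair of arrays. A member detected on 1 array only is bound to differ between them, so the counts stand over all 173 members and not over the detected ones.

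**Figure D1:**
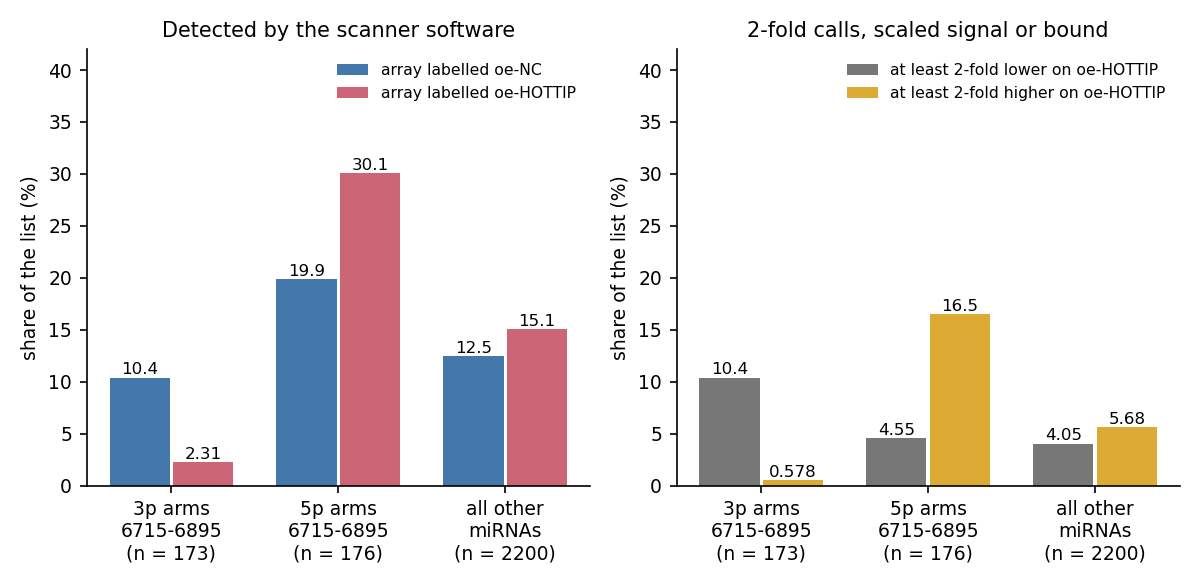
The bars give the share of each list, in percent, that was detected on each array (left) and that was at least 2-fold lower or higher on the oe-HOTTIP-labelled array (right), for the 173 3p arms, the 176 5p arms of the same number range and the 2200 other miRNAs. The 3p arms go from 10.4% to 2.31% detected where the 5p arms go from 19.9% to 30.1%, and the 2 colours on the right are in opposite order in these lists.

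The signals behind these calls were dim. Intensities are spot signals after background subtraction, in scanner units, so that a probe without bound RNA can fall below 0. Over all 173 members the median was -0.388 on the oe-NC-labelled array, with a range from -3.75 to 26.6. On the oe-HOTTIP-labelled array the median was -0.734 and the range -3.72 to 44.4. Negative control spots averaged 3.87 ± 2.37 (SD, 976 spots) and 3.45 ± 2.21 (SD, 975 spots) on the 2 arrays, so most members lay below the mean of the negative controls. A signal above the mean of the negative controls plus 3 SD, 11.0 and 10.1, was reached by 12 members (6.94%) on the oe-NC-labelled array and by 1 (0.578%) on the oe-HOTTIP-labelled array, against 8.63% and 11.5% of all miRNAs. No spot was saturated on either array, and 127 and 139 of the 3460 member spots were left out as outliers.

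The oe-HOTTIP-labelled array was the brighter of the pair, which makes the lower 3p signals there visible before any scaling. The 90th percentile, taken over the 261 miRNAs that both arrays detected, was 439 against 279.9, a shift of 0.65 on the log2 scale. The geometric mean of both labelling spike-ins was 0.63 higher on the log2 scale. Without scaling, 119 of the 173 members were nonetheless dimmer on the oe-HOTTIP-labelled array (68.8%), against 41 of the 176 5p arms (23.3%) and 920 of the 2200 other miRNAs (41.8%). Of these 119 members, 101 were detected on neither array, and none of the 101 rose above the negative controls by 3 SD. The other 18 were the members detected on the oe-NC-labelled array. The differences and bounds below are after division by the 90th percentile, which lowers the oe-HOTTIP-labelled array by that shift, and without it 11 members remained at least 2-fold lower.

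The brightest 3p arm on the oe-NC-labelled array was miR-6766-3p, the arm within POLG. Its intensity was 26.6 ± 2.66 (SD, 20 spots) on that array and 9.68 ± 1.85 (SD, 20 spots) on the oe-HOTTIP-labelled array. The scaled signal was 4.32-fold lower on the oe-HOTTIP-labelled array, a log2 difference of -2.11 with a spread over spots of 0.31, and 2.75-fold lower before scaling. Both of its probes, targeting the same miRNA, gave similar log2 differences, -2.20 and -2.03.

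miR-6819-3p, within MYH9, was the next brightest, at 18.2 ± 3.15 (SD, 20 spots) on the oe-NC-labelled array. It read 8.82 ± 2.68 (SD, 19 spots) on the oe-HOTTIP-labelled array. The log2 difference was -1.70 with a spread over spots of 0.50, or 3.24-fold lower. Before scaling the log2 difference was -1.05, and with outlier spots kept it was -1.01 after scaling. Its probes differed by -1.77 and -1.63. miR-6797-3p, within RPS19, had the smallest difference of the 3 members detected on both arrays, from 14.3 ± 2.65 (SD, 20 spots) to 9.51 ± 2.16 (SD, 19 spots). That is a difference of -1.24 on the log2 scale (spread over spots 0.42), or 2.36-fold lower, and before scaling it was 1.50-fold lower and under the 2-fold threshold. For all 3 the spot values on the oe-HOTTIP-labelled array were low in another sense: 20 spots of each were well above background on the oe-NC-labelled array, and between 3 and 5 on the other. The median log2 difference of these 3 was -1.70, beside 0.42 for the 30 5p arms detected on both arrays and 0.024 for all 261 miRNAs detected on both.

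Of the 15 members detected on the oe-NC-labelled array only, miR-6889-3p had the largest bound. It read 11.3 ± 2.19 (SD, 19 spots) on the oe-NC-labelled array and 2.51 ± 2.24 (SD, 20 spots) on the oe-HOTTIP-labelled array, which is at least 7.08-fold lower. Its signal on the second array lay below the mean of the negative controls. miR-6752-3p read 12.9 ± 2.35 (SD, 20 spots) and 3.12 ± 1.54 (SD, 19 spots), at least 6.47-fold lower. Its probes read 7.65 and 18.1 on the oe-NC-labelled array, so the size of its signal depended on the probe, while both were dimmer on the other array. miR-6798-3p, which has the longest run of C among the members, read 13.2 ± 1.93 (SD, 20 spots) and 4.63 ± 1.89 (SD, 19 spots), at least 4.49-fold lower.

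The next bounds came from members near or below the negative controls' upper range on both arrays. miR-6760-3p read 6.76 ± 1.86 (SD, 20 spots) and 1.18 ± 1.89 (SD, 20 spots), at least 4.37-fold lower, and miR-6777-3p read 11.4 ± 2.67 (SD, 20 spots) and 4.73 ± 2.31 (SD, 20 spots), at least 3.80-fold lower. The probes of miR-6760-3p read 1.74 and 11.8 on the oe-NC-labelled array, so its signal there rested on 1 probe. miR-6813-3p, within RGS19, a regulator of G protein signalling, read 8.37 ± 2.67 (SD, 20 spots) and 3.97 ± 1.28 (SD, 19 spots), at least 3.31-fold lower. Its probes read 3.53 and 13.2 on the oe-NC-labelled array. The named members with the fewest spots well above background were miR-6892-3p and miR-6812-3p. miR-6892-3p read 5.29 ± 1.94 (SD, 19 spots) and 2.36 ± 1.81 (SD, 20 spots), at least 3.42-fold lower, and had 2 spots well above background on the oe-NC-labelled array. 1 of its probes read 1.18 on the oe-NC-labelled array and 1.14 on the other, and the second probe 9.40 and 3.57. miR-6812-3p read 5.15 ± 1.89 (SD, 19 spots) and 1.67 ± 1.61 (SD, 18 spots), at least 3.33-fold lower, with 1 spot well above background, and 1 of its probes read 1.45 on the oe-NC-labelled array and -0.641 on the other. Across all 15 members the intensity ran from 4.82 to 13.2 (median 11.3) on the oe-NC-labelled array and from 1.18 to 7.25 (median 4.63) on the oe-HOTTIP-labelled array, and no spot of any of them was well above background on the latter. The bounds of the other 7 ran from 3.19-fold down to 2.42-fold. The members nearest the threshold on its inner side were miR-6797-3p (2.36-fold) and miR-6848-3p (at least 2.42-fold), and no member with a value lay just outside it.

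The bounds depend on where detection is taken to end, since the lowest signals called detected were 0.976 and 2.43 on the 2 arrays. With a higher floor, the signal at which 50% of the miRNAs around it in rank were detected (5.32 and 6.44), 14 members remained at least 2-fold lower. The 4 that did not were miR-6760-3p (1.65-fold), miR-6892-3p (1.29-fold), miR-6812-3p (1.26-fold) and miR-6870-3p (1.18-fold). miR-6889-3p came to 2.76-fold, miR-6752-3p to 3.14-fold and miR-6798-3p to 3.23-fold.

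**Figure D2:**
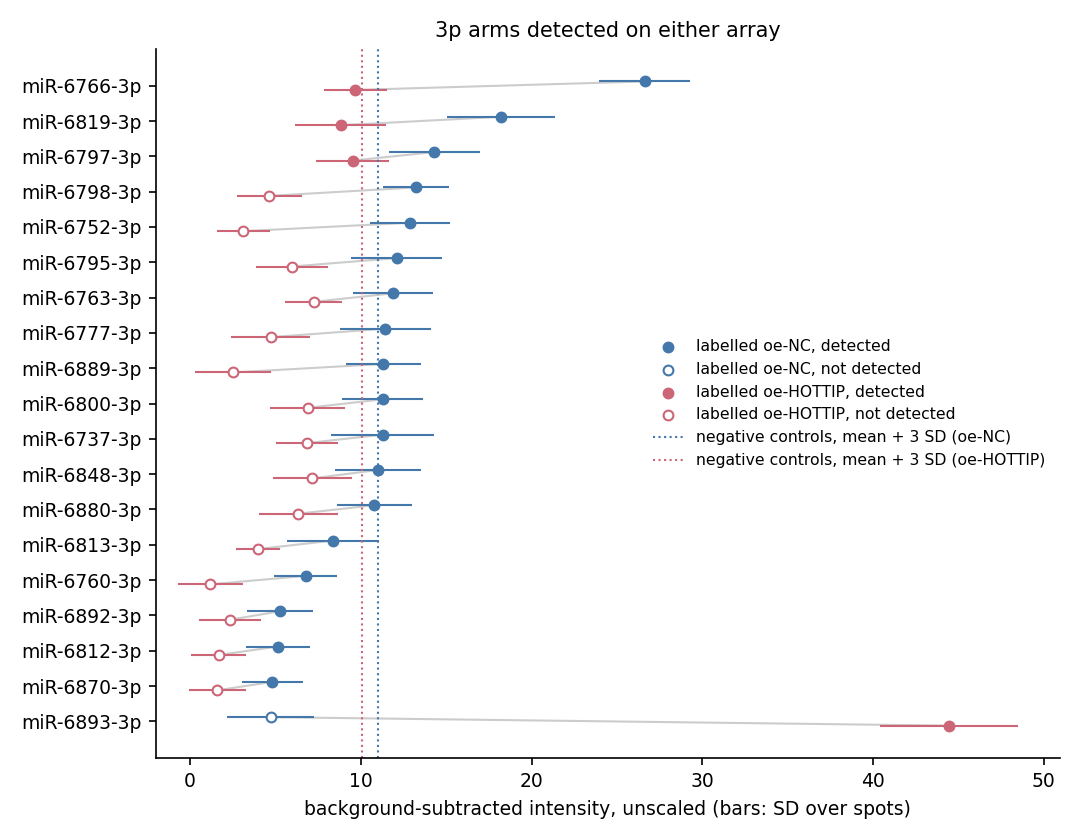
Each row is 1 of the 19 3p arms detected on either array, with its unscaled background-subtracted intensity on the oe-NC-labelled array (blue) and on the oe-HOTTIP-labelled array (red). Filled points were called detected, bars are the SD over spots, and dotted lines mark the mean of the negative controls plus 3 SD (11.0 and 10.1); 18 arms are dimmer on the oe-HOTTIP-labelled array and miR-6893-3p is brighter there.

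miR-6893-3p was the single member with the opposite pattern, and the brightest 3p arm on either array. It read 4.71 ± 2.53 (SD, 16 spots) on the oe-NC-labelled array, where it was not detected, and 44.4 ± 4.04 (SD, 19 spots) on the oe-HOTTIP-labelled array, where 19 spots were well above background. That is at least 6.01-fold higher after scaling, and 5.32-fold with the higher floor. Its probes gave similar values, 4.85 and 4.57 on the first array and 47.8 and 41.0 on the second. Its partner arm miR-6893-5p moved in the same direction, from 16.2 ± 3.24 (SD, 20 spots) to 49.8 ± 6.30 (SD, 20 spots), a difference of 0.97 on the log2 scale (spread over spots 0.34).

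**Figure D3:**
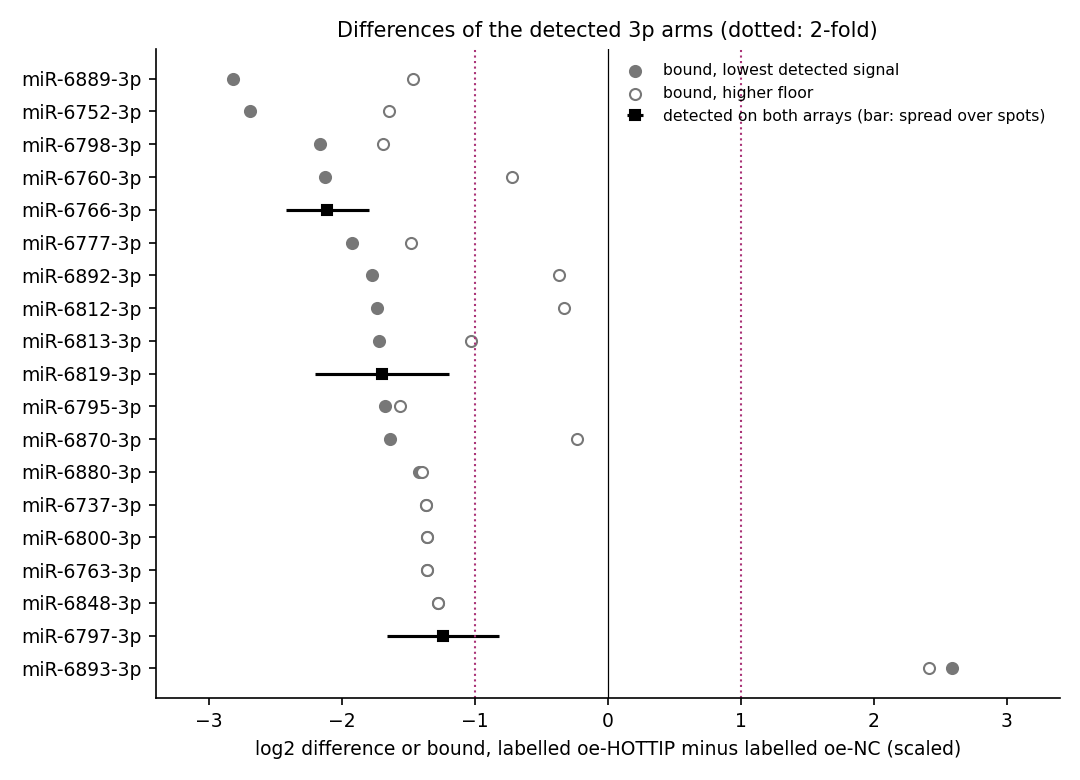
The log2 difference or bound, oe-HOTTIP-labelled array minus oe-NC-labelled array after scaling, is drawn for each of the 19 detected 3p arms, with squares and spot-spread bars for the 3 detected on both arrays, filled circles for bounds against the lowest detected signal and open circles for bounds against the higher floor; where only an open circle shows, both bounds coincide. Of the arms, 18 lie left of the 2-fold line at -1 by the main value, and the open circles of 4 fall between that line and 0.

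A partner arm detected on neither array was common among the lower 3p arms, as it was among all hairpins. Among 170 hairpins with both arms on the array, the 5p arm was detected on an array in 56. Both arms were detected on an array in 8, the 3p arm alone in 11, the 5p arm alone in 48 and neither in 103. For the 18 hairpins whose 3p arm was at least 2-fold lower, the 5p arm was detected on neither array in 11, had a measured difference under 2-fold in 4, was at least 2-fold lower in 1 and at least 2-fold higher in 1. In the remaining hairpin miR-6892-5p was detected on the oe-NC-labelled array only, with a bound of -0.68 on the log2 scale, which does not settle whether it passed the threshold. miR-6766-5p, miR-6819-5p and miR-6797-5p were detected on neither array, with intensities from -1.77 to 3.02, so the 3 members with measured differences were seen as 3p arms only. miR-6795-5p was the partner that was lower, by at least 4.11-fold, and 2.17-fold with the higher floor. miR-6752-5p was the partner that was higher: it read 5.14 ± 2.11 (SD, 20 spots) and 16.4 ± 1.74 (SD, 18 spots), at least 2.03-fold higher and 1.96-fold with the higher floor, while miR-6752-3p was at least 6.47-fold lower. miR-6812-5p was detected on both arrays, where it read 77.5 ± 8.56 (SD, 19 spots) and 92.4 ± 6.72 (SD, 17 spots), a log2 difference of -0.40. Probes differ in how well they bind, so levels of the 2 arms are not compared beyond detection.

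Detection among the 3p arms with a sequence followed a feature of that sequence that was looked at after the values were seen. All 16 detected members with a sequence held a run of at least 4 C. miR-6848-3p, miR-6880-3p and miR-6893-3p were also detected but had no sequence here, so the pattern does not cover them. miR-6893-3p was the only member called higher and the brightest 3p arm. Of the 154 members with a sequence, 53 held such a run (34.4%), and 16 of these were detected on the oe-NC-labelled array (30.2%) and 3 on the oe-HOTTIP-labelled array (5.66%). None of the other 101 members, whose longest run was 3 C or fewer, was detected on either array. The median intensity of the 53 was 2.61 on the oe-NC-labelled array and 0.371 on the oe-HOTTIP-labelled array, and that of the 101 was -1.02 and -1.12. Of the 53, 48 were dimmer on the oe-HOTTIP-labelled array before scaling (90.6%), against 58 of the 101 (57.4%).

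The share detected was higher at longer runs. On the oe-NC-labelled array, 10 of 44 members with a longest run of 4 C were detected (22.7%), 5 of 8 with 5 C (62.5%), and miR-6798-3p with 6 C. Medians on that array were 2.28 at 4 C and 11.6 at 5 C, and 0.282 and 3.92 on the oe-HOTTIP-labelled array. Across the 154 members, Spearman's rho between the longest C run and intensity was 0.52 on the oe-NC-labelled array and 0.38 on the oe-HOTTIP-labelled array, and -0.54 with the unscaled difference between them. The members share 2 arrays and a common base composition, and these coefficients are a description. The share of C and U as a whole went less closely with intensity (0.29 and 0.21), and GC content hardly at all (-0.060 and -0.089). Ending in AG did not separate the members much, with 13 of 115 detected on the oe-NC-labelled array (11.3%) against 3 of 39 with another end (7.69%).

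**Figure D4:**
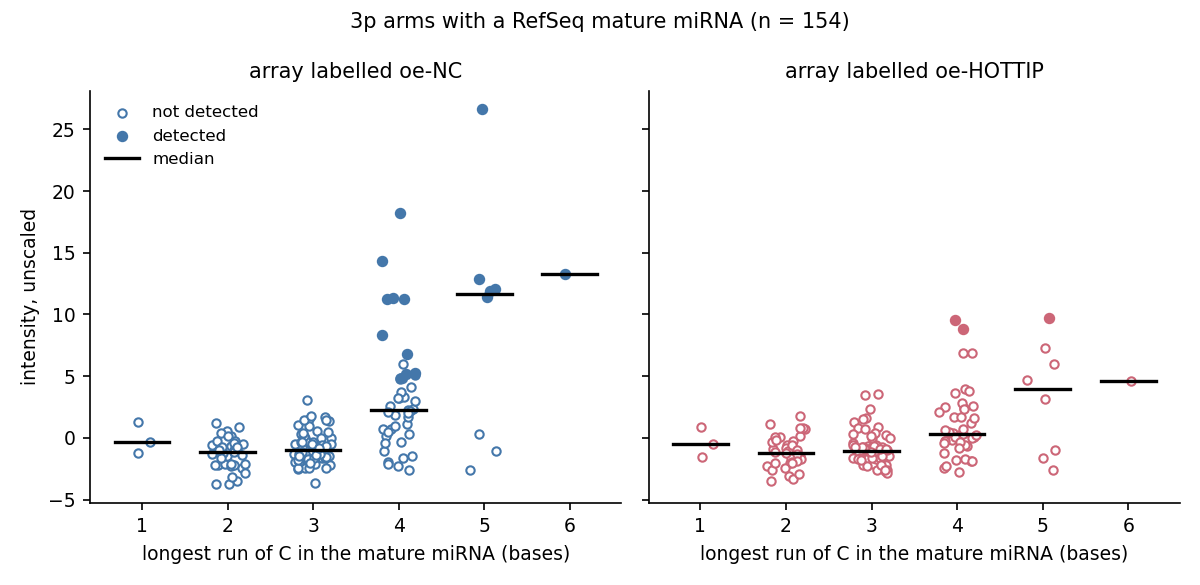
Each point is 1 of the 154 3p arms with a sequence, placed by its longest uninterrupted run of C in bases and by its unscaled intensity on the oe-NC-labelled (left) or oe-HOTTIP-labelled (right) array, with filled points for detected arms and black lines for medians. None of these arms with a run of 3 C or fewer is detected on either array, and at 5 C the median is 11.6 on the left and 3.92 on the right. The detected arms miR-6848-3p, miR-6880-3p and miR-6893-3p had no sequence and are not drawn.

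The place of the run also differed between members. Where a member held several longest runs of equal length, the last was taken, which moves such members towards a later start. In 12 of the 53 the longest run began within the first 6 bases, and miR-6798-3p was the only 1 of these that was detected; its sequence above shows another run of C behind the first. The median intensity of those 12 on the oe-NC-labelled array was -1.30. In the other 41 the run began at base 7 or later, 15 were detected on the oe-NC-labelled array (36.6%), and the median was 3.69. These position limits, too, were set after detection was known.

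The pattern was present in part outside the number range. Among the 1944 other miRNAs with a sequence, 98 held a run of at least 4 C, and 31 of these were detected on the oe-NC-labelled array (31.6%) and 22 on the oe-HOTTIP-labelled array (22.4%). Of the 98, 23 were at least 2-fold lower on the oe-HOTTIP-labelled array (23.5%) and 6 higher (6.12%). The 1846 others without such a run had 53 lower (2.87%) and 99 higher (5.36%). Of these 1846, 204 were detected on the oe-NC-labelled array (11.1%) and 260 on the oe-HOTTIP-labelled array (14.1%). Detection without such a run was thus found outside the number range, but in 0 of the 101 members. With a run of at least 5 C, 6 of 9 members and 14 of 21 other miRNAs were lower, and none of either was higher. Only 2 of the 150 5p arms with a sequence held a run of at least 4 C, and neither was detected. The part that the C runs play in the signals was not tested.

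The lower 3p arms did not share seeds. The 16 called members with a sequence had 16 different seeds, and across all 154 members there were 149 seeds, of which 5 were shared by a pair. miR-6819-3p was the only called member to share its seed with another member, miR-6877-3p, at chr9:133052035-133052055 on the plus strand.
miR-6877-3p: cAGCCUCUgcccuuggccucc

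The pair shares AGCCUCU but differs at many of the bases behind it, where miR-6819-3p has a run of 4 C and miR-6877-3p a longest run of 3. miR-6877-3p was detected on neither array.

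The 154 members that were not detected leaned slightly to lower signals on the oe-HOTTIP-labelled array as well. Their median intensity was -0.673 on the oe-NC-labelled array and -0.909 on the oe-HOTTIP-labelled array, and 101 were dimmer and 53 brighter on the latter before scaling. These signals lay between -3.75 and 6.02, and the mean of the negative controls was itself lower on the oe-HOTTIP-labelled array, 3.45 against 3.87. Members called detected reached down to 4.82, within that range, so the absence of a call does not show that a member was absent.

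Marker miRNAs were looked at for the identity of the exosomes. Of 8 miRNAs typical of squamous epithelium, 5 were detected on the oe-NC-labelled array and 6 on the oe-HOTTIP-labelled array, with summed intensities of 530 and 640. miR-205-5p, a marker of squamous cells, was bright on both (415 and 490), and miR-203a-3p and miR-429 were detected on neither. Of 5 blood cell miRNAs 4 were detected on both arrays, led by the red cell miRNA miR-451a at 2233 and 2552, and their sums were 2277 and 2609. Both liver and serum markers were detected on both arrays, with sums of 13.6 and 28.2, and both neuron markers were detected on neither. Of the 3 muscle markers a different 1 was detected on each array, miR-133a-3p at 8.94 on the oe-NC-labelled array (0.171 on the other) and miR-206 at 14.4 on the oe-HOTTIP-labelled array (-1.11 on the other), and the sums were 7.74 and 14.6. The squamous and blood sums were higher on the oe-HOTTIP-labelled array before scaling, but by less than the 1.57-fold ratio of the 90th percentiles, so they were lower after scaling. Within the blood list miR-486-5p was dimmer on the oe-HOTTIP-labelled array, 5.91 against 12.6. The part of these markers in the 3p signals was not tested.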

How the data were processed

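Total RNA of exosomes (200 ng) was labelled with Cy3 and hybridised to 1 one-colour Agilent miRNA array per group. The deposited scanner output holds spot intensities after background subtraction and detection flags, extracted by the authors with Agilent Feature Extraction (11.5.1.1 in the file headers, 10.10 in the submitters' processing notes). The deposited normalized table holds the authors' log2 values after 90th percentile normalization. Both of its columns have a median of 1e-06, a floor value, both hold equal values once sorted, the scale was otherwise not given in the sources used here, and its direction contradicts the titles, so it served as an alternative only.

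Outlier spots were left out, spots were averaged per probe and probes per miRNA, and values were divided by each array's 90th percentile, taken over the miRNAs that both arrays detected. Detection is the scanner software's call. No p-value was computed, because each group has 1 array. Each SD is over spots, pooled within probes (2 or 3 per member), and measures technical spread only. The spread over spots of a log2 difference combines both arrays' SDs, and precision is limited by how few arrays there are. The scaling and 2-fold calls were tested on simulated arrays in which the same miRNAs were detected on both. Bounds were checked only on a small made-up example, so the simulation does not cover members detected on 1 array only.

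Named were all members detected on both arrays, the 8 largest bounds in each direction, called members sharing a seed, and the 5p partners where they bear on a result. miR-6870-3p and miR-6795-5p were added after their values were seen. Members and lists were chosen with earlier results of these data known. Python 3.11.15, numpy 2.4.6, pandas 2.3.3, R 4.3.3 and limma 3.58.1 were used. Alternatives covered scaling, probe summary, background correction, outlier spots, detection, bounds and the authors' table. The sequence and position of miR-6752-3p are not reported here.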

Additional observations from a re-analysis of the deposited data

How the results depend on the processing

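More members were lower than higher, and the median was negative, under every alternative that gave calls and a median except the authors' table read as its columns are named. There, 1 member was at least 2-fold lower and 16 higher, and the median log2 difference of the 3 members detected on both arrays was 1.97. In that table the log2 differences or bounds, oe-HOTTIP column minus oe-NC column, were 2.50 for miR-6766-3p, 1.97 for miR-6819-3p, 1.50 for miR-6797-3p, 2.02 for miR-6889-3p, 2.22 for miR-6752-3p, 2.26 for miR-6798-3p, 1.21 for miR-6760-3p, 2.06 for miR-6777-3p, 0.93 for miR-6892-3p, 0.85 for miR-6812-3p, 1.34 for miR-6813-3p and -2.62 for miR-6893-3p. All but the first 3 are bounds. Requiring over 50% of the spots well above background left 11 members detected on the oe-NC-labelled array, 1 on the oe-HOTTIP-labelled array and 2 lower. A signal above the negative controls by 3 SD left 1 detected on the oe-HOTTIP-labelled array. Without scaling 11 were lower and the median was -1.05. Normexp with an offset of 50, which compresses dim signals, gave 0 lower, 0 higher and a median of -0.34. Counting only members detected on both arrays gave 3 lower and 0 higher. The other alternatives gave 12 to 18 lower and 1 higher. Labelling spike-ins for scaling and negative controls for detection were added after the data were seen. No member was left for the median under the 50% rule or with both arrays above the negative controls by 3 SD. No paired analysis was possible because there was a single array per group, and no replicate could be left out.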
